A study of Mus musculus with 6 samples.

Results

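Axon guidance ligands and receptors were examined in the adult mouse retina of 2 inbred strains, DBA/2J (D2) and C57BL/6J (B6). Both strains are labelled wild type, and D2 develops a pigmentary glaucoma with age. The members were all rows of the count table whose symbol belongs to the class 3 to class 7 semaphorins, the plexins, neuropilins, Eph receptors, ephrins, Robos, Slits, netrins, Unc5 receptors or Dcc. This gave 71 of 30510 rows, namely 20 semaphorins, 9 plexins, 2 neuropilins, 14 Eph receptors, 8 ephrins, 4 Robos, 3 Slits, 3 netrins, 5 netrin receptors and 3 antisense RNAs of Plxna4. Total RNA from retinas of mice aged 60 to 100 days was sequenced in 3 D2 and 3 B6 libraries, with an RNA integrity number of 9.1 to 9.5. Nothing in the labels ties a library to its own mouse, and the p-values therefore reflect only how far these libraries spread, which could be technical.

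Axon guidance cues are secreted or membrane-bound ligands that attract or repel growing axons. Semaphorins act through plexins, with neuropilins as co-receptors for most class 3 members. Ephrins and Eph receptors signal in both directions at cell contacts, Slits repel through Robos, and netrins attract through Dcc and repel through Unc5 receptors. In the developing retina these genes steer ganglion cell axons to the optic nerve and brain, set the map of the visual field, sort neurites into the synaptic layers and shape the vessels. Many remain expressed in the mature retina.

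The 6 libraries held 29417002 to 43719666 counts, of which the guidance genes took 0.167% to 0.175%. Levels are given as CPM, counts scaled to a common library size, and as CPM per kb of annotated exon where genes are compared with each other. As a check of the tissue, 7 markers of amacrine cells, interneurons of the retina, had a summed level of 625 to 651 CPM in D2 and 594 to 603 CPM in B6, and 2 of them rose in D2. Of 10 ganglion cell markers, 6 fell and 1 rose in D2, with a summed level of 717 to 765 CPM in D2 and 852 to 991 CPM in B6, and none of the 10 was at 0. Of 6 markers of ciliary epithelium and iris, 5 fell, with a summed level of 95.1 to 107 CPM in D2 and 148 to 161 CPM in B6. Of 7 endothelium and pericyte markers, 1 rose and 1 fell, with a summed level of 314 to 327 CPM in D2 and 299 to 316 CPM in B6. Most of that sum was Kdr, the marker that rose, and the median log2 fold change of the 7 was -0.20. Of 8 cone photoreceptor markers, 7 fell, with a summed level of 1100 to 1200 CPM in D2 and 1460 to 1490 CPM in B6. Of 4 oligodendrocyte markers 3 rose (summed level 43.9 to 64.8 CPM in D2 and 38.0 to 40.7 CPM in B6), and of 4 erythrocyte genes 3 rose (112 to 228 CPM in D2 and 62.4 to 96.4 CPM in B6). Summed levels were lower in D2 for rod photoreceptors (47400 to 49700 CPM in D2 and 53700 to 55300 CPM in B6). The same held for Mueller glia (3970 to 4320 CPM in D2 and 4360 to 4710 CPM in B6) and microglia (25.1 to 26.4 CPM in D2 and 27.5 to 29.5 CPM in B6). Horizontal cell markers were higher (269 to 285 CPM in D2 and 256 to 258 CPM in B6). The sums of the other lists overlapped between the strains. The part of the marker shifts in the values of the guidance genes was not tested. In these bulk samples, fewer cells of a type and less RNA per cell cannot be told apart. Reads of both strains were aligned to mm10, a reference derived from B6, and the part of sequence differences between the strains in any result was not tested.

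The differences between strains were modest and ran in both directions. Of the 69 guidance genes that passed the filter on low counts, 27 passed the threshold of 0.05 on the adjusted p of edgeR's quasi-likelihood fit, of which 11 rose and 16 fell in D2. That is 39.1% of the tested members, beside 29.7% of all 18588 tested rows (14.5% higher and 15.3% lower). The median level was 16.2 CPM for tested members and 15.2 CPM for all tested rows, and among genes at 5 CPM or more 25 of 53 members (47.2%) and 33.6% of all rows were called. The median absolute log2 fold change was 0.19 for members and 0.13 for all tested rows, and the median signed value was -0.05 for members and 0.01 for all tested rows. Of the 27, 23 differed by less than 1.5-fold and none reached 2-fold. The strains' libraries did not overlap in any of the 27, nor in 7 further members that did not pass (42.3% of all tested rows did not overlap). Plxnb3 and Plxna4os1 were too low to be tested.

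**Figure D1:**
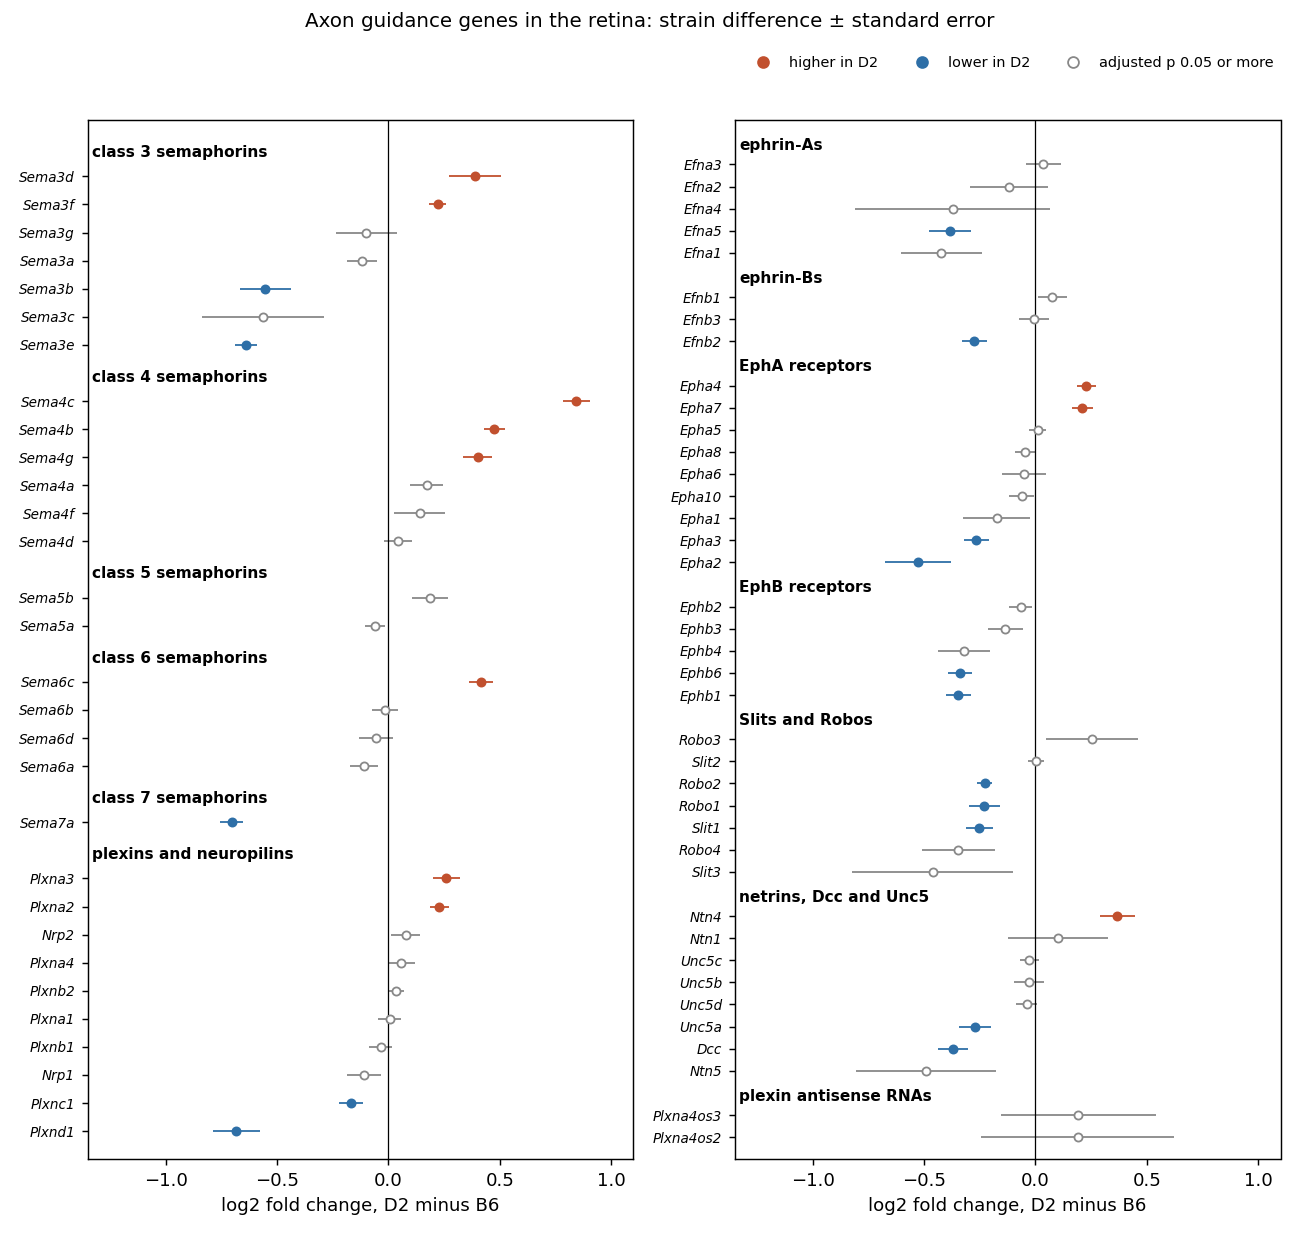
Log2 fold change (D2 minus B6, horizontal axis) with its standard error for the 69 tested guidance genes, by family. Filled points passed the test; Sema4c lies farthest to the right at 0.84 and Sema7a farthest to the left at -0.70.

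Summed over its members per kb of exon, the class 4 semaphorin family stood at 17.9 ± 0.551 CPM per kb in D2 and 13.1 ± 0.215 CPM per kb in B6 (SD, n = 3), a ratio of 1.37. The single class 7 semaphorin, Sema7a, stood at 8.20 ± 0.25 CPM per kb in D2 and 13.4 ± 0.866 CPM per kb in B6, a ratio of 0.614. EphB receptors had a ratio of 0.832, Robos 0.86, ephrin-As 0.887 and netrin receptors 0.906, in each case with every D2 library below every B6 library. Netrins had a ratio of 1.23, carried by Ntn4, which made up 88.1% of their summed level. Plexins, neuropilins, ephrin-Bs and the class 3, class 5 and class 6 semaphorins had ratios of 0.973 to 1.05 and overlapping libraries. EphA receptors had a ratio of 1.03 and Slits 0.944, also without overlap. All guidance genes together had a ratio of 0.99. These sums are descriptions, with no test.

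**Figure D2:**
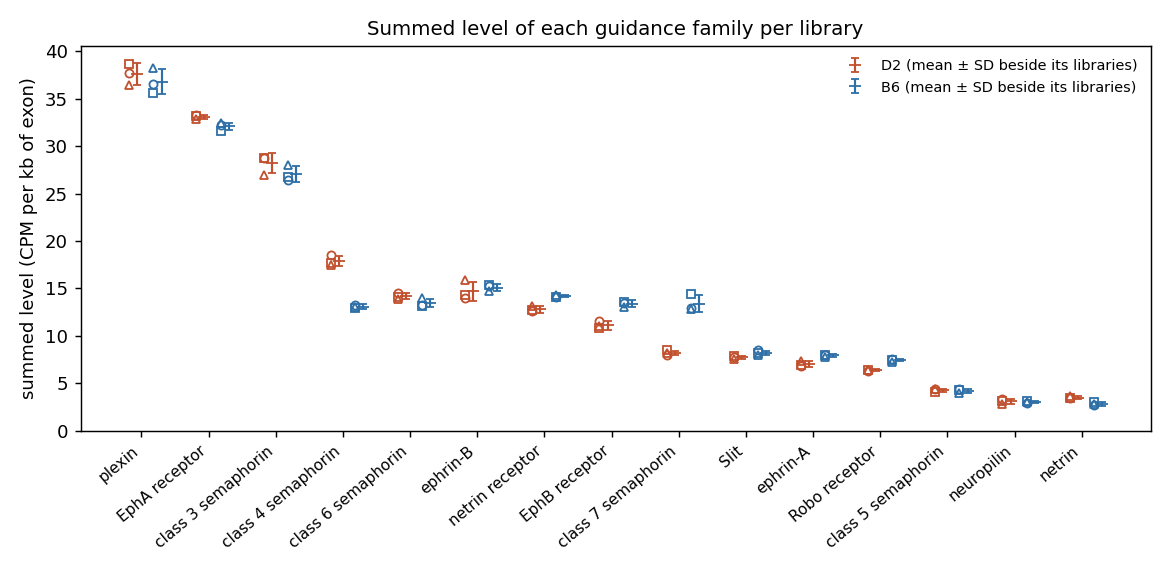
Summed level of each guidance family in CPM per kb of exon (vertical axis), with a symbol for each library and the mean ± SD beside it, D2 left of B6. Class 4 semaphorins are higher in D2 (17.9 against 13.1 in B6), and class 7 and EphB genes are lower.

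The class 4 semaphorins are membrane-bound ligands, many of which signal through B-type plexins. Of the 6, 3 rose in D2 and none fell (50% called, beside 29.7% of all tested rows). The log2 fold changes of the 6 members were 0.04 to 0.84. Sema4c, a ligand of plexin-B2 (chromosome 1, 36548639 to 36558349), had 24.7, 23.5 and 23.7 CPM in the D2 libraries and 14.0, 12.3 and 13.8 CPM in the B6 libraries. Every D2 library lay above every B6 library, and Sema4c was 1.79-fold higher in D2 (log2 fold change 0.84 ± 0.06, adjusted p = 4.16e-08). Sema4b had 30.3, 27.9 and 29.2 CPM in D2 and 20.7, 20.7 and 21.5 CPM in B6, 1.39-fold higher in D2 (log2 fold change 0.48 ± 0.05, adjusted p = 2.7e-06). It was the most abundant class 4 member per kb, at 4.44 CPM per kb. Sema4g rose 1.32-fold (24.0 ± 2.40 CPM in D2 and 18.2 ± 0.498 CPM in B6; log2 fold change 0.40 ± 0.07, adjusted p = 0.000275). Sema4a, whose loss in mice leads to photoreceptor degeneration, had 10.5 ± 0.514 CPM in D2 and 9.33 ± 0.37 CPM in B6 and did not pass (adjusted p = 0.101), although its libraries did not overlap. Sema4d, the ligand of plexin-B1, stood at 0.04 ± 0.06 log2 (adjusted p = 0.66), and Sema4f at 0.14 ± 0.12 log2 (adjusted p = 0.403).

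Of the B-type plexins, Plxnb1 and Plxnb2 were among the most abundant guidance receptors per kb and did not pass the test. Plxnb1 was the plexin with the highest level per kb, 10.2 CPM per kb, and had 97.1, 101 and 92.1 CPM in D2 and 97.2, 92.7 and 108 CPM in B6 (log2 fold change -0.03 ± 0.05, adjusted p = 0.663). Plxnb2 had 68.1, 66.0 and 65.6 CPM in D2 and 65.0, 64.4 and 65.6 CPM in B6 (log2 fold change 0.03 ± 0.04, adjusted p = 0.528). The libraries of the strains overlapped in both genes. Plxnb3 held 7 to 11 counts in each of the 6 libraries. Part of the exons of Sema4c (334 of 4593 bases) and of Plxnb1 (257 of 9592 bases) overlap a gene on the opposite strand, D430040D24Rik and Gm7628, and whether counting used strand is not stated in the labels. Gm7628 was lower in D2 (38 to 57 counts in D2 and 95 to 105 counts in B6; log2 fold change -0.76, adjusted p = 0.0126). No counts are given under the symbol D430040D24Rik, so its part in the level of Sema4c could not be examined.

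Sema7a is anchored to the membrane by a lipid and binds plexin-C1 and integrins. It was the second most abundant semaphorin per kb, at 10.8 CPM per kb, and had the largest fall of the tested guidance genes. Sema7a (chromosome 9, 57940112 to 57962865) had 26.3, 27.9 and 27.0 CPM in D2 and 42.7, 47.3 and 42.2 CPM in B6. Every D2 library lay below every B6 library, a 1.63-fold fall in D2 (log2 fold change -0.70 ± 0.05, adjusted p = 7.05e-08). Its receptor gene Plxnc1 had 26.8, 25.3 and 26.9 CPM in D2 and 31.7, 28.4 and 28.5 CPM in B6, 1.12-fold lower in D2 (log2 fold change -0.17 ± 0.05, adjusted p = 0.0265). Plxnc1 lost its call without B6 replicate 1 (log2 fold change -0.11, adjusted p = 0.124), D2 replicate 1 (-0.18, adjusted p = 0.0509) or D2 replicate 2 (-0.14, adjusted p = 0.109), and in the DESeq2 Wald test (adjusted p = 0.0564).

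A second ligand and receptor pair was lower in D2. Sema3e, a secreted semaphorin that binds plexin-D1 directly and limits vessel growth in the developing retina, and Plxnd1, the gene of that receptor, both fell. Sema3e (chromosome 5, 14025276 to 14256689) had 19.3, 18.7 and 18.2 CPM in D2 and 29.7, 29.6 and 28.1 CPM in B6, a 1.56-fold fall (log2 fold change -0.64 ± 0.05, adjusted p = 1.08e-07). Plxnd1 (chromosome 6, 115954811 to 115995005) had 4.20, 4.95 and 4.09 CPM in D2 and 7.38, 7.34 and 6.46 CPM in B6, a 1.61-fold fall (log2 fold change -0.68 ± 0.11, adjusted p = 0.000155). In both genes the lowest B6 library lay above the highest D2 library. Of the endothelial markers, the VEGF receptor Kdr rose (200 ± 4.07 CPM in D2 and 182 ± 7.89 CPM in B6) and the angiopoietin receptor Tek fell (6.71 ± 0.395 CPM in D2 and 8.29 ± 0.455 CPM in B6). The median log2 fold change of the 7 endothelium and pericyte markers was -0.20. Among those that did not pass, Cdh5 (log2 fold change -0.41 ± 0.15, adjusted p = 0.0576) and Pdgfrb (-0.20 ± 0.08, adjusted p = 0.0743) lay lower in every D2 library than in any B6 library, and Pecam1 stood at -0.21 ± 0.10. Kdr held most of the summed level of this list. The part of these markers in the level of Plxnd1 was not tested.

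**Figure D3:**
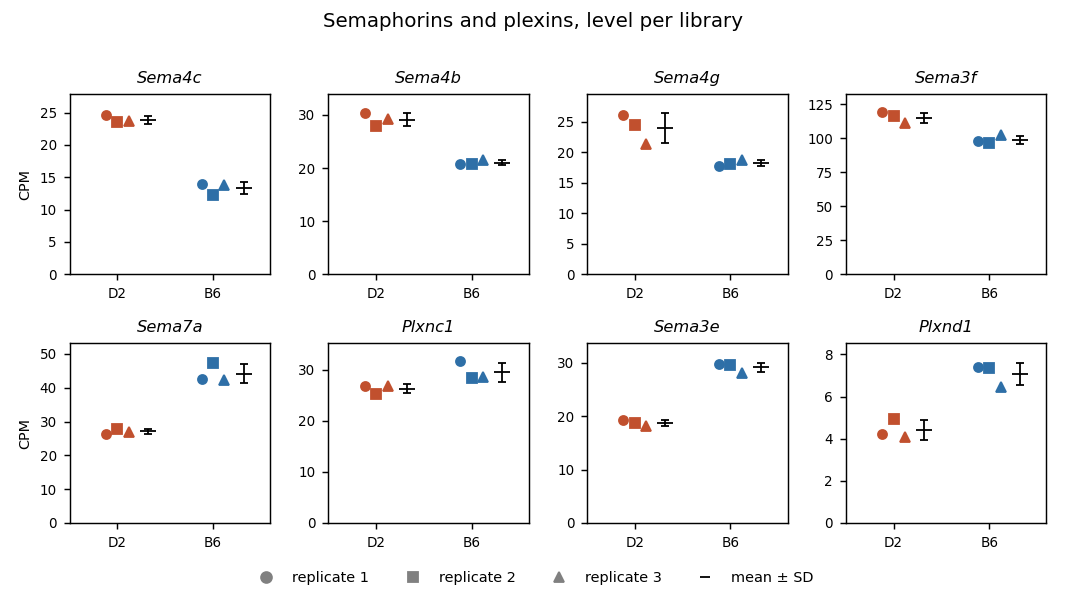
Level in CPM (vertical axis, from 0) of 8 semaphorin and plexin genes in each library, D2 left and B6 right, with the mean ± SD (n = 3). In all 8 genes the libraries of the strains do not overlap; Sema4c is higher in D2 and Sema7a, Sema3e and Plxnd1 are lower.

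The 250 bases before the annotated start of these 4 genes are shown because they are the 4 called members that differed by 1.5-fold or more, Sema4c higher and the other 3 lower in D2. The sequences are from RefSeq (GRCm38.p6, the mm10 build), read along the strand of the gene, 5′ to 3′, at chr1:36558382-36558631 for Sema4c (minus strand), chr9:57939862-57940111 for Sema7a (plus strand), chr5:14025026-14025275 for Sema3e (plus strand) and chr6:115995006-115995255 for Plxnd1 (minus strand). The table held entries for 58 of the 71 members. Sema4c has a second annotated start, whose window is not shown. Capitals mark the GC box GGGCGG on either strand.
Sema4c: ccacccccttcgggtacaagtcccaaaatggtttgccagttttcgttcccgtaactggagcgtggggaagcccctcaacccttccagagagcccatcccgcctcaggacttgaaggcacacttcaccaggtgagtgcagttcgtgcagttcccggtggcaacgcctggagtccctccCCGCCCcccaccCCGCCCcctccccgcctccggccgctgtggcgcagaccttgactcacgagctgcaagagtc
Sema7a: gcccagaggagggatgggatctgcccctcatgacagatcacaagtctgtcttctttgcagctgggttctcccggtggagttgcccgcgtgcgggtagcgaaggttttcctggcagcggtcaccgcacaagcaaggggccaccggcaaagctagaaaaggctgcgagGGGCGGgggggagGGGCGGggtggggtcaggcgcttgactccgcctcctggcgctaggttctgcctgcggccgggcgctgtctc
Sema3e: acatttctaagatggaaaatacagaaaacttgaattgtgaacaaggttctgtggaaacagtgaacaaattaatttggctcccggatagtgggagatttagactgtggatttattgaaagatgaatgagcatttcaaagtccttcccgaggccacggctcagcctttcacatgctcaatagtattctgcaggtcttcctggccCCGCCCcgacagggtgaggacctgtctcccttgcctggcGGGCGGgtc
Plxnd1: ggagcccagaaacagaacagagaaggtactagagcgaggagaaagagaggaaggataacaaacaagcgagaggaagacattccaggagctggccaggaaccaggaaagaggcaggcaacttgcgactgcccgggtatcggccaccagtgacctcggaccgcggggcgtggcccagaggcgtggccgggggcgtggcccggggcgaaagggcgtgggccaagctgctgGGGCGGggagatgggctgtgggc
A GC box stood in each of the 4 windows and in 32.7% of 32851 such windows. The windows of Sema4c, Sema7a and Plxnd1 had a GC content of 64.4%, 66.4% and 64.8%, and that of Sema3e 48%, beside a median of 52.4% over all windows. None of the 4 held, on either strand, the TATA box letters TATAAA (found in 12.4% of all windows), the CCAAT box letters CCAAT (33.8%) or, for the photoreceptor factor CRX, the letters TAATCC (6.25%). The window of Sema4c lies within an exon of the opposite-strand gene D430040D24Rik.

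Of the 7 class 3 semaphorins, secreted ligands most of which bind neuropilins, 2 rose (Sema3f and Sema3d) and 2 fell (Sema3e and Sema3b). That is 57.1% of this class, beside 29.7% of all tested rows. Sema3f, which repels axons and vessels through neuropilin-2 and plexin-A3, was the most abundant guidance gene per kb, at 20.6 CPM per kb. Sema3f (chromosome 9, 107681500 to 107710475) had 119, 116 and 111 CPM in D2 and 98.0, 96.3 and 102 CPM in B6, 1.17-fold higher in D2 without overlap (log2 fold change 0.22 ± 0.04, adjusted p = 0.000343). Plxna3 also rose (18.7 ± 0.754 CPM in D2 and 15.6 ± 0.966 CPM in B6; log2 fold change 0.26 ± 0.06, adjusted p = 0.00448). Nrp2 had 26.8 ± 2.86 CPM in D2 and 25.3 ± 0.835 CPM in B6 and did not pass (adjusted p = 0.426). Sema3b (chromosome 9, 107597674 to 107609229) had 6.31, 6.52 and 4.86 CPM in D2 and 7.70, 8.72 and 9.55 CPM in B6, 1.47-fold lower in D2 (log2 fold change -0.55 ± 0.12, adjusted p = 0.00194).

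Sema3d had 4.30, 5.14 and 5.29 CPM in D2 and 3.93, 3.83 and 3.47 CPM in B6, 1.31-fold higher in D2 (log2 fold change 0.39 ± 0.12, adjusted p = 0.0194). Its call was lost without B6 replicate 2, B6 replicate 3, D2 replicate 2 or D2 replicate 3 (log2 fold changes 0.40, 0.34, 0.36 and 0.33, adjusted p = 0.0559, 0.0594, 0.0625 and 0.0881) and in the DESeq2 Wald test (adjusted p = 0.0537). Sema3a, the repellent ligand of neuropilin-1, had 13.3 ± 0.949 CPM in D2 and 14.4 ± 0.37 CPM in B6 and did not pass (adjusted p = 0.204), nor did Sema3g (-0.10 ± 0.14 log2, adjusted p = 0.634) or Nrp1 (-0.11 ± 0.08 log2, adjusted p = 0.306). Sema3c had the largest standard error of the class 3 genes, with 3.43, 7.81 and 3.37 CPM in D2 and 4.67, 8.12 and 9.07 CPM in B6. It did not pass (log2 fold change -0.56 ± 0.28, adjusted p = 0.146), but passed without D2 replicate 2 (-1.08, adjusted p = 0.00334) and without B6 replicate 1 (-0.81, adjusted p = 0.0255). Markers of the retinal pigment epithelium varied with the same libraries: Rpe65 had 7.80, 23.2 and 5.96 CPM in D2 and 7.98, 16.7 and 28.7 CPM in B6, and Lrat had 3.54, 11.4 and 3.51 CPM in D2 and 3.98, 9.01 and 15.6 CPM in B6. Of the 6 markers of this list none passed, with a summed level of 368 to 399 CPM in D2 and 355 to 410 CPM in B6. Most of that sum was Rlbp1, also a Mueller glia marker, at 334 ± 10.6 CPM in D2 and 315 ± 9.62 CPM in B6. How far these markers enter the level of Sema3c was not tested.

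Class 5 and class 6 semaphorins are membrane-bound ligands of A-type plexins that sort neurites into the layers of the retina. Of these 6 genes, 1 rose and none fell, beside 14.5% higher and 15.3% lower among all tested rows. That gene, Sema6c, had 23.5, 23.8 and 22.5 CPM in D2 and 16.7, 18.2 and 17.4 CPM in B6, 1.33-fold higher in D2 without overlap (log2 fold change 0.42 ± 0.05, adjusted p = 2.45e-05). Sema6b, the most abundant of class 6 at 6.32 CPM per kb, had 26.2, 23.2 and 25.4 CPM in D2 and 25.6, 23.7 and 26.3 CPM in B6 (log2 fold change -0.02 ± 0.06, adjusted p = 0.878). Sema5a, which with Sema5b confines inner retinal neurites to their layer, had 55.3, 53.4 and 57.0 CPM in D2 and 59.4, 58.7 and 54.3 CPM in B6 (log2 fold change -0.06 ± 0.04, adjusted p = 0.355). Sema5b had 9.99, 8.92 and 9.41 CPM in D2 and 8.74, 8.19 and 7.85 CPM in B6, without overlap, and did not pass (log2 fold change 0.19 ± 0.08, adjusted p = 0.0955). Sema6a had 25.9 ± 2.11 CPM in D2 and 28.0 ± 1.81 CPM in B6 (adjusted p = 0.213), and passed without D2 replicate 2 (log2 fold change -0.18, adjusted p = 0.0457). Sema6d stood at -0.06 ± 0.08 log2 (adjusted p = 0.643).

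Of the A-type plexins, the receptors of class 5 and class 6, Plxna2 and Plxna3 rose. Plxna2, which with Sema6a shapes starburst amacrine dendrites, had 137, 148 and 136 CPM in D2 and 120, 115 and 125 CPM in B6 (log2 fold change 0.23 ± 0.04, adjusted p = 0.000671). Plxna1 (0.01 ± 0.05 log2, adjusted p = 0.952) and Plxna4 (0.06 ± 0.06 log2, adjusted p = 0.518) did not pass. Of the 9054 exon bases of Plxna1, 970 overlap genes on the opposite strand. The antisense RNAs of Plxna4 were near the detection limit. Plxna4os2 held 7, 23 and 13 counts in D2 and 8, 22 and 15 counts in B6, and Plxna4os3 held 15, 8 and 13 counts in D2 and 14, 13 and 11 counts in B6 (adjusted p = 0.788 and 0.731). Of the 403 exon bases of Plxna4os3, 110 overlap Plxna4 on the opposite strand, so its counts cannot be told apart from reads of Plxna4 without the strand setting. Plxna4os1 held 2 to 6 counts in a library.

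Ephrin-As are lipid-anchored and ephrin-Bs span the membrane, and their graded levels across the retina guide the map of ganglion cell axons. Of the 8 ephrins, 2 fell and none rose (25% called, beside 29.7% of all tested rows). Efna5, a nasal ephrin of the developing retina, had 6.14, 5.90 and 6.10 CPM in D2 and 7.54, 8.79 and 7.30 CPM in B6, 1.31-fold lower in D2 without overlap (log2 fold change -0.38 ± 0.09, adjusted p = 0.00611). Efnb2, a dorsal ephrin that also marks arterial endothelium, had 20.7, 23.1 and 24.5 CPM in D2 and 27.3, 28.3 and 27.1 CPM in B6, 1.21-fold lower in D2 (log2 fold change -0.27 ± 0.06, adjusted p = 0.00207). Efnb1, the most abundant ephrin at 6.17 CPM per kb, had 19.7, 21.9 and 23.9 CPM in D2 and 21.3, 20.8 and 20.2 CPM in B6 (log2 fold change 0.08 ± 0.06, adjusted p = 0.417). Efnb3 had 16.7, 14.7 and 17.2 CPM in D2 and 16.5, 16.7 and 15.6 CPM in B6 (log2 fold change -0.01 ± 0.07, adjusted p = 0.952). Efna3 led the ephrin-As at 3.24 CPM per kb and had 8.01, 7.66 and 8.32 CPM in D2 and 7.82, 7.90 and 7.69 CPM in B6 (adjusted p = 0.785). Efna1 had 1.70, 2.03 and 2.01 CPM in D2 and 2.73, 1.95 and 3.12 CPM in B6, and passed only without B6 replicate 2 among the alternatives run (log2 fold change -0.61, adjusted p = 0.0201; -0.42 ± 0.18 and adjusted p = 0.0965 with all 6 libraries). Efna2 had 2.07 ± 0.483 CPM in D2 and 2.25 ± 0.171 CPM in B6, and Efna4 0.395 ± 0.24 CPM in D2 and 0.495 ± 0.209 CPM in B6 (adjusted p = 0.663 and 0.577). Part of the exons of Efna3 (344 of 2434 bases) and of Efna4 (168 of 1599 bases) overlap a gene on the opposite strand.

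The Eph receptors are tyrosine kinases. Among the 9 EphA receptors, which bind ephrin-As, 2 rose and 2 fell (44.4% called, beside 29.7% of all tested rows). Epha4, which binds ephrins of both classes, was the most abundant Eph receptor at 9 CPM per kb, and had 79.1, 78.6 and 77.0 CPM in D2 and 69.6, 63.0 and 67.4 CPM in B6, 1.17-fold higher in D2 without overlap (log2 fold change 0.23 ± 0.04, adjusted p = 0.000555). Epha7, another receptor of ephrin-As, also rose (48.8 ± 1.69 CPM in D2 and 42.2 ± 2.02 CPM in B6; log2 fold change 0.21 ± 0.05, adjusted p = 0.00275). Epha3 fell (14.9 ± 0.481 CPM in D2 and 17.9 ± 0.467 CPM in B6; log2 fold change -0.27 ± 0.06, adjusted p = 0.00198). Epha2 had 2.32, 1.78 and 1.93 CPM in D2 and 2.71, 2.87 and 3.12 CPM in B6 (log2 fold change -0.53 ± 0.15, adjusted p = 0.0143), and did not pass without D2 replicate 2 (-0.45, adjusted p = 0.0547). Epha5 and Epha6, which mark the temporal retina, did not pass: Epha5 had 62.4 ± 0.518 CPM in D2 and 62.0 ± 1.58 CPM in B6 (log2 fold change 0.01 ± 0.04, adjusted p = 0.88) and Epha6 10.2 ± 1.29 CPM in D2 and 10.7 ± 1.11 CPM in B6 (adjusted p = 0.735). Epha8 had 32.2, 30.6 and 32.9 CPM in D2 and 32.7, 32.1 and 34.0 CPM in B6 (log2 fold change -0.05 ± 0.05, adjusted p = 0.514). Epha10, a receptor without kinase activity, and Epha1 stood at -0.06 ± 0.06 and -0.17 ± 0.15 log2 (adjusted p = 0.443 and 0.431).

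All 5 EphB receptors had negative log2 fold changes, from -0.35 to -0.07, and 2 of them passed (40%, beside 29.7% of all tested rows). Ephb1 directs the axons that stay on the same side at the optic chiasm, where midline cells carry ephrin-B2. Ephb1 (chromosome 9, 101922128 to 102354693) had 16.1, 15.4 and 16.3 CPM in D2 and 20.8, 20.8 and 19.0 CPM in B6, 1.27-fold lower in D2 without overlap (log2 fold change -0.35 ± 0.06, adjusted p = 0.000272). Ephb6, a receptor without kinase activity and the most abundant EphB at 5.27 CPM per kb, had 18.6, 16.8 and 17.4 CPM in D2 and 22.4, 22.2 and 22.0 CPM in B6, 1.26-fold lower in D2 (log2 fold change -0.34 ± 0.05, adjusted p = 0.000163). Ephb4, the venous partner of ephrin-B2, had 3.80 ± 0.464 CPM in D2 and 4.72 ± 0.297 CPM in B6, without overlap, and did not pass (log2 fold change -0.32 ± 0.12, adjusted p = 0.0552). It passed without D2 replicate 1 (-0.41, adjusted p = 0.0273) and in limma-voom (adjusted p = 0.0483). The end of Ephb4 overlaps 33 exon bases of Zan on the opposite strand, and Zan was lower in D2 (426 to 472 counts in D2 and 796 to 866 counts in B6; log2 fold change -0.65, adjusted p = 3.73e-05). Ephb2 and Ephb3, the ventral receptors that pair with dorsal ephrin-Bs, stood at -0.07 ± 0.05 and -0.14 ± 0.08 log2 (adjusted p = 0.371 and 0.223).

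Slits are secreted repellents that keep ganglion cell axons on their path inside the eye. Of the 7 Slit and Robo genes, 3 fell and none rose (42.9% called, beside 29.7% of all tested rows). Robo2, the main Slit receptor of ganglion cell axons, made up 79.5% of the summed Robo level per kb. Robo2 (chromosome 16, 73891839 to 74411825) had 85.2, 86.3 and 86.9 CPM in D2 and 102, 99.3 and 101 CPM in B6, 1.17-fold lower in D2 without overlap (log2 fold change -0.23 ± 0.03, adjusted p = 9.09e-05). Robo1, a second Slit receptor, also fell (13.4 ± 0.994 CPM in D2 and 15.7 ± 0.816 CPM in B6; log2 fold change -0.23 ± 0.07, adjusted p = 0.0196), and did not pass without B6 replicate 1 (-0.22, adjusted p = 0.0549), B6 replicate 2 (-0.21, adjusted p = 0.0729) or D2 replicate 3 (-0.17, adjusted p = 0.111). Slit1 had 14.9, 14.1 and 13.2 CPM in D2 and 17.0, 16.4 and 16.8 CPM in B6 (log2 fold change -0.25 ± 0.06, adjusted p = 0.00543). Slit2, the most abundant Slit at 5.31 CPM per kb, had 134, 138 and 133 CPM in D2 and 140, 135 and 130 CPM in B6, with overlapping libraries (log2 fold change 0.003 ± 0.036, adjusted p = 0.959). The difference between the fold changes of Slit1 and Slit2 was not tested. Robo4, a receptor of endothelium, had 1.52 ± 0.0327 CPM in D2 and 1.92 ± 0.248 CPM in B6 (adjusted p = 0.135), Robo3 1.6 ± 0.325 CPM in D2 and 1.34 ± 0.265 CPM in B6 (adjusted p = 0.394), and Slit3 0.348 ± 0.0962 CPM in D2 and 0.473 ± 0.191 CPM in B6 (adjusted p = 0.38).

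**Figure D4:**
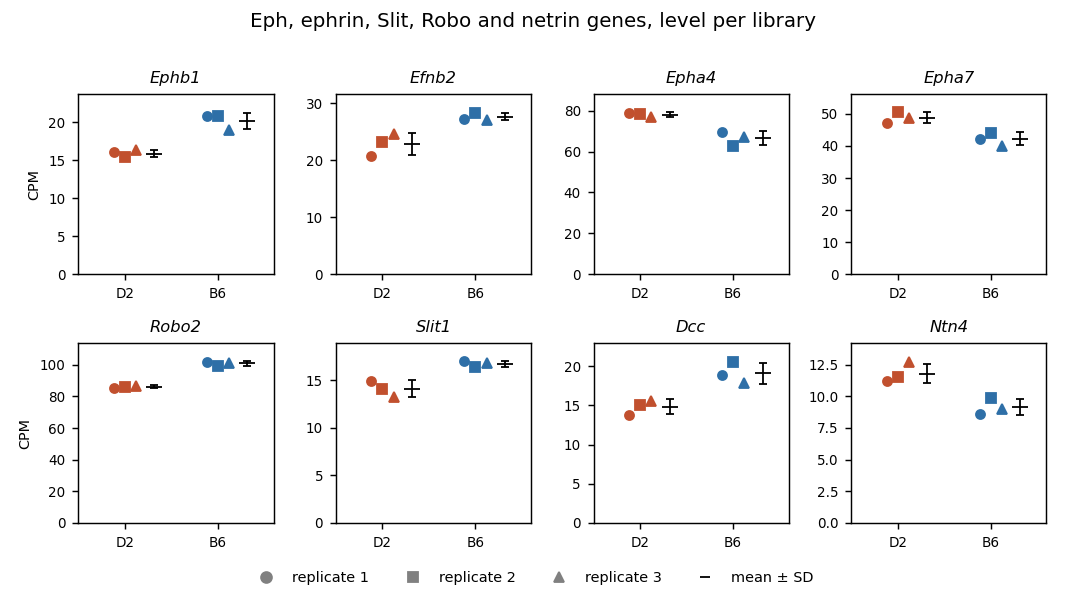
Level in CPM (vertical axis, from 0) of 8 Eph, ephrin, Slit, Robo and netrin genes in each library, D2 left and B6 right, with the mean ± SD (n = 3). Epha4, Epha7 and Ntn4 are higher in every D2 library than in any B6 library, and the other 5 are lower.

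Among the netrins and their receptors, the attractive receptor Dcc and the repellent receptor Unc5a fell while Ntn4, a netrin of basement membranes, rose. Dcc (chromosome 18, 71253634 to 72351069) had 13.7, 15.0 and 15.6 CPM in D2 and 18.9, 20.5 and 17.8 CPM in B6, 1.29-fold lower in D2 without overlap (log2 fold change -0.37 ± 0.07, adjusted p = 0.000588). Unc5a, the most abundant netrin receptor at 4.27 CPM per kb, had 14.2, 16.1 and 17.8 CPM in D2 and 19.2, 19.0 and 20.4 CPM in B6 (log2 fold change -0.27 ± 0.07, adjusted p = 0.00961), and did not pass without D2 replicate 1 (-0.20, adjusted p = 0.0548). Unc5d had 37.3, 35.3 and 36.1 CPM in D2 and 39.2, 36.2 and 36.2 CPM in B6 (log2 fold change -0.04 ± 0.05, adjusted p = 0.569), and Unc5b and Unc5c stood at -0.03 ± 0.07 and -0.03 ± 0.04 log2 (adjusted p = 0.793 and 0.702). Ntn4 had 11.2, 11.5 and 12.7 CPM in D2 and 8.63, 9.87 and 8.97 CPM in B6, 1.29-fold higher in D2 (log2 fold change 0.37 ± 0.08, adjusted p = 0.00238). Ntn1, the classical netrin of the optic disc, was low in both strains, at 1.32 ± 0.248 CPM in D2 and 1.23 ± 0.285 CPM in B6 (adjusted p = 0.779). Ntn5 held 10 or 11 counts in each D2 library and 12 to 23 in each B6 library (adjusted p = 0.273), and 519 of its 2216 exon bases overlap Sec1 on the opposite strand, which was lower in D2 (37 or 38 counts in D2 and 79 to 103 counts in B6; log2 fold change -1.03, adjusted p = 0.000233).

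Several of the genes that fell, among them Robo2, Dcc and Ephb1, are known from ganglion cells. Of the 10 ganglion cell markers 6 fell too: Nefm had 102 ± 2.47 CPM in D2 and 145 ± 11.6 CPM in B6, Thy1 82.0 ± 3.73 CPM in D2 and 98.5 ± 4.51 CPM in B6, and Pou4f1 27.2 ± 1.27 CPM in D2 and 31 ± 1.67 CPM in B6, all past the test. Sncg passed in the other direction (60.1 ± 2.99 CPM in D2 and 52.5 ± 5.24 CPM in B6; log2 fold change 0.19 ± 0.06, adjusted p = 0.0285). Rbpms, a marker of all ganglion cells, had 19.8 ± 1.11 CPM in D2 and 20 ± 1.70 CPM in B6 and did not pass (log2 fold change -0.02 ± 0.07, adjusted p = 0.849). Other guidance genes of the map of ganglion cell axons did not fall. The Eph receptor genes Epha5 (0.01 ± 0.04 log2), Epha6 (-0.05 ± 0.10 log2) and Ephb2 (-0.07 ± 0.05 log2) did not pass. Epha4 (0.23 ± 0.04 log2) and Epha7 (0.21 ± 0.05 log2) rose. The part of ganglion cell content in the values of the guidance genes was not tested.

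Partner genes of these pathways were taken from 4 lists. Of 80 tested partners, 13 rose and 17 fell, with a median log2 fold change of -0.07, beside 14.5% higher and 15.3% lower among all tested rows. Among 25 semaphorin and plexin partners 4 rose and 5 fell, among 17 Eph and ephrin partners 4 rose and 2 fell, and among 22 Slit, Robo and netrin partners 4 rose and 4 fell. Dpysl3 (CRMP4), a cytosolic mediator of semaphorin signals on microtubules, had 519, 521 and 509 CPM in D2 and 305, 305 and 308 CPM in B6, 1.69-fold higher in D2 (log2 fold change 0.76 ± 0.03, adjusted p = 2.4e-10). Its relative Dpysl2 (CRMP2), the most abundant partner per kb with Dpysl3, had 563 ± 7.12 CPM in D2 and 596 ± 31.2 CPM in B6 (adjusted p = 0.168), and passed without B6 replicate 3 (log2 fold change -0.12, adjusted p = 0.0292). Nrcam, an adhesion molecule that forms a complex with neuropilin-2, fell 1.4-fold (96.4 ± 2.44 CPM in D2 and 135 ± 3.07 CPM in B6; log2 fold change -0.48 ± 0.04, adjusted p = 6.2e-08). Neo1, the relative of Dcc that binds netrins and RGM proteins, rose 1.27-fold (152 ± 1.36 CPM in D2 and 119 ± 1.27 CPM in B6; log2 fold change 0.35 ± 0.03, adjusted p = 7.93e-07). Flrt3, a ligand of Unc5 receptors, fell 1.39-fold (20.2 ± 0.806 CPM in D2 and 28.1 ± 0.892 CPM in B6; log2 fold change -0.48 ± 0.05, adjusted p = 3.35e-06).

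The fourth list held regulators of the retinal axes that set Eph and ephrin gradients during development. Of 16 tested, 1 rose and 6 fell in D2 (14.5% and 15.3% of all tested rows). Aldh1a1, the retinoic acid enzyme of the dorsal retina, had 30.0, 31 and 30.4 CPM in D2 and 72.2, 71.6 and 72.7 CPM in B6, 2.37-fold lower in D2 (log2 fold change -1.24 ± 0.04, adjusted p = 4.46e-12). Cyp26a1, which breaks retinoic acid down, held 9, 17 and 9 counts in D2 and 96, 119 and 71 counts in B6 (log2 fold change -2.75 ± 0.25, adjusted p = 6.01e-07). The transcription factors Vax2 of the ventral retina (15.1 ± 2.34 CPM in D2 and 15.5 ± 1.23 CPM in B6, adjusted p = 0.727) and Tbx5 of the dorsal retina (3.24 ± 0.262 CPM in D2 and 2.54 ± 0.148 CPM in B6, adjusted p = 0.055) did not pass. Tbx5 was nonetheless higher in every D2 library than in any B6 library. The gene that rose was Tbx2, also dorsal (log2 fold change 0.21 ± 0.04, adjusted p = 0.0014). The markers of ciliary epithelium and iris were lower in D2 as well, as given above, and their part in these values was not tested.

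The authors' deposited table, for which the labels name no test, lists 68 of the 71 members. Of these, 32 (47.1%) have a false discovery rate under 0.05 in the authors' deposited table, beside 40.9% of all its genes. The 32 include all 27 called here, and the strain means in the authors' deposited table put each of the 27 in the same direction. The other 5 in the authors' deposited table are Efna1, Ephb4, Sema3c, Sema4a and Sema5b, at 0.0349, 0.016, 0.0273, 0.0378 and 0.0347. Both tables come from the same 6 libraries, so this is no independent check.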

How the data were processed

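Retinal total RNA of D2 and B6 mice was sequenced in 3 libraries per strain. Per the submitters' processing notes, FastQC, STAR, SAMtools and edgeR were used with the build mm10. No version, read counter, annotation or strand setting is stated there. The count table deposited by the authors holds unnormalized whole numbers by symbol, where some symbols have further rows that carry a trailing suffix (no member does). They also deposited a table of scaled strain scores, with standard errors and a false discovery rate, used here as an adjusted p-value. All 6 count columns were mapped by title.

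The fit used edgeR 4.0.16 (R 4.3.3) on every row of the table: filterByExpr defaults, TMM factors, a quasi-likelihood fit of strain (D2 minus B6), Benjamini-Hochberg adjustment over 18588 rows and a threshold of 0.05. The biological coefficient of variation was 4.4%. CPM uses TMM-scaled library sizes. Errors are SD over n = 3 libraries, and ± after a log2 fold change is its standard error. CPM per kb divides by the merged exon length in GENCODE M21, to which all 71 members matched. The detection floor, 3 counts, was worth 0.0694 to 0.104 CPM depending on the library, for counting error only. In simulated data with the same depths, 30, 41, 50 and 50 of 50 genes changed by 1.2, 1.5, 2 and 4-fold were called, with 21 calls among 18209 unchanged genes. The changed genes were drawn from rows with a mean above 1 CPM. They were a far smaller share of all genes than the 29.7% called in the data, so these detection rates do not carry over to it.

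Members were named in full where they passed without overlap at an absolute log2 fold change of 0.5 or more, where they were the 2 most abundant of their family per kb, or where they had the lowest adjusted p of a family with none of the first kind. Other members are given more briefly, and Ephb4, Sema3c, Sema3d, Robo1, Plxnc1, Efna1 and Sema6a were given per alternative after their values were seen. Of the partners, the 6 lowest adjusted p values and the 2 most abundant were named. The members and lists were chosen with earlier results of these data known. Alternatives were DESeq2 and upper quartile factors, the DESeq2 1.42.0 Wald test, limma-voom (limma 3.58.1), other filters, summed rows of one symbol, a replicate block and leaving out each library. Python 3.11.15 with pandas 2.3.3 and scipy 1.17.1 handled the tables.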

Additional observations from a re-analysis of the deposited data

How the results depend on the processing

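Of the 27 called guidance genes, 22 were called under all 14 alternatives (Epha2, Robo1, Sema3d, Unc5a and Plxnc1 were not). The counts of called guidance genes, 11 higher and 16 lower in D2, ranged from 10 to 11 and from 15 to 17 over the alternatives. With the replicate block they were 11 and 17, the added gene being Sema3c (log2 fold change -0.61, adjusted p = 0.0307), and over all genes 2432 and 2661. Deviations of same-numbered libraries from their strain means correlated at 0.135, 0.0657 and -0.0296, and those of other pairs at -0.204 to 0.164. With 3 libraries per strain, these values cannot tell whether a replicate number marks a shared batch, and the labels do not say. Sema3c also passed with no filter beyond 1 count (adjusted p = 0.0394). Called partners ranged from 11 to 13 higher and from 14 to 20 lower. Over all genes the counts ranged from 2081 to 2771 higher and from 2405 to 3003 lower. Without each library in turn, guidance genes ranged from 10 to 11 higher and from 15 to 16 lower. Of the members that did not pass, 17 changed sign under some alternative. For Epha5, Epha6, Sema4d, Sema6d, Efna2, Ntn1, Unc5b, Unc5c and Plxna1 the log2 fold changes stayed within -0.281 to 0.208, and for Efna4 they ran from -0.785 to 0.059. The others were as follows. Slit2 had -0.00058 with upper quartile factors, -7.5e-05 in the DESeq2 Wald test, and -0.0036, -0.022 and -0.013 without B6 replicate 2, B6 replicate 3 and D2 replicate 2 (up to 0.031 without other libraries). Sema6b had 0.013 and 0.036 without B6 replicate 3 and D2 replicate 2 (down to -0.064). Efnb3 had 0.0043, 0.0067 and 0.058 without B6 replicate 1, B6 replicate 2 and D2 replicate 2 (down to -0.053). Unc5d had 0.0012 without B6 replicate 1 (down to -0.066). Plxnb1 had 0.027 and 0.0015 without B6 replicate 3 and D2 replicate 3 (down to -0.088). Plxna4os2 had -0.187 and -0.315 without B6 replicate 1 and D2 replicate 2 (up to 0.49), and Plxna4os3 -0.073 without D2 replicate 1 (up to 0.424). The cause was not tested. Genes under 1 CPM, such as Slit3, Efna4 and Ntn5, had standard errors that leave differences of the size of most called members not detectable at this depth.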

Other observations

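Further partner genes also differed between strains. They were chosen after their values were seen. Draxin, a secreted antagonist of netrins that binds Dcc, had 2.10 ± 0.187 CPM in D2 and 0.999 ± 0.14 CPM in B6 (SD, n = 3; log2 fold change 1.08 ± 0.18, edgeR adjusted p = 0.00029). Srgap1, a GTPase-activating protein that binds Robos, fell (8.28 ± 0.752 CPM in D2 and 12 ± 0.726 CPM in B6; log2 fold change -0.54 ± 0.08, edgeR adjusted p = 0.000162). Rnd3, a small GTPase of the Rnd group, whose members bind plexins, rose (36.5 ± 1.62 CPM in D2 and 26.4 ± 1.28 CPM in B6; log2 fold change 0.47 ± 0.05, edgeR adjusted p = 4.67e-06), as did Rnd2 (33.2 ± 1.39 CPM in D2 and 27.2 ± 0.279 CPM in B6; edgeR adjusted p = 0.000214). Of the Eph partners, the exchange factors Tiam1, Vav2 and Vav3 rose by 0.23, 0.29 and 0.22 log2, and Ngef (ephexin) and the kinase Abl2 fell by 0.38 and 0.26 log2.

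Of the axis regulators, Bmp4, the dorsal morphogen of the retina, had 0.572 ± 0.222 CPM in D2 and 1.75 ± 0.245 CPM in B6 (log2 fold change -1.62 ± 0.26, edgeR adjusted p = 0.000212). The ventral retinoic acid enzyme Aldh1a3 had 0.698 ± 0.0267 CPM in D2 and 1.45 ± 0.19 CPM in B6 (log2 fold change -1.04 ± 0.21, edgeR adjusted p = 0.00135). Tbx2, a dorsal transcription factor, rose (49.1 ± 1.57 CPM in D2 and 42.4 ± 1.09 CPM in B6; log2 fold change 0.21 ± 0.04, edgeR adjusted p = 0.0014).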
